A study of Rattus norvegicus with 8 samples.

Results

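Clock genes were followed in rat liver, 10 in number. They were Bmal1, Npas2 and Clock, which encode the activators of the loop, Per1, Per2 and Cry1, which encode its repressors, Nr1d1 and Nr1d2, which encode the Rev-erb receptors, and Dbp and Tef, which encode output factors. They are 10 of 15154 genes that RefSeq accessions name on the array, and 9 of the 10 could be measured, as could 10004 genes in all. Each gene was read from its probe of highest mean liver signal. The AhR group was made up of grown Sprague-Dawley males whose dams were given a mixture of aryl hydrocarbon receptor agonists, namely non-ortho PCBs with polychlorinated dioxins and furans, at 1.8 ng per kg per day as dioxin equivalents. The control group was made up of males whose dams were given corn oil alone, the vehicle of the mixture. In both groups dams were dosed from gestation day 0 to postnatal day 20, pups stayed with their birth mothers, and livers came from rats 78 to 86 days old. Each group had 4 arrays and each array a pool of 2 rats, so that 8 pups stood behind a group. A pool gives the average of 2 livers, and the labels used here give no time of day at which livers were taken. They also do not say whether pools shared litters, so that p-values measure the spread between pools.

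Liver RNA carried Cy5 and a common reference RNA of 14 rat cell lines carried Cy3 on every array. Values are log2 ratios of Cy5 over Cy3, so that a positive value is a brighter liver channel. No dyes were swapped, and the sign of a single ratio is therefore open to dye bias, while differences between arrays share the denominator. The median Cy5 signal per array was 159 to 232 units over a local background of 71 to 76, and between 56.2% and 62.0% of probes were well above background. All 8 arrays lay on 1 slide. The 10 hepatocyte markers looked for were all measured. Their mean log2 ratio per array was 0.09 to 0.35 in AhR and 0.08 to 0.23 in control. Single markers differed in sign: Cyp2c11 averaged 1.08 in AhR and 0.82 in control, Alb -0.16 and 0.04, and Apoa1 -0.32 and -0.39. Fewer cells of a type and less RNA per cell cannot be told apart in such pools.

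The mammalian clock is a loop of transcription. BMAL1 pairs with CLOCK or NPAS2 and binds E-box elements in the Per, Cry, Nr1d1, Nr1d2, Dbp and Tef genes. PER and CRY proteins then repress that pair, and the Rev-erb proteins repress Bmal1, Npas2 and Clock through ROR elements (ROREs). In the liver of mice and rats, known from time courses, Bmal1, Npas2 and Clock transcripts peak together around the end of the dark phase. Nr1d1 is known to peak in the light phase, followed by Dbp, by Tef and Per1, and by Per2 near the start of darkness, with Cry1 later in the night. Liver entrains to feeding, and in mice DBP and TEF drive genes of heme synthesis and drug metabolism.

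Promoter sequences from RefSeq (build GRCr8, 250 bases before to 50 after a transcription start) were found for 9 of the 10 genes, Cry1 being the exception. They are shown for the genes whose windows held an element of the loop, so that the letters can be seen beside the values of these genes. Searched on both strands were the E-box CACGTG, its variant CACGTT, the D-box TTATGNAA and the RORE core TAGGTCA, none of which overlap in these windows. Capitals mark the matches. All are written 5′ to 3′ along the gene.
Bmal1 (chr1:176766078-176766377, plus strand): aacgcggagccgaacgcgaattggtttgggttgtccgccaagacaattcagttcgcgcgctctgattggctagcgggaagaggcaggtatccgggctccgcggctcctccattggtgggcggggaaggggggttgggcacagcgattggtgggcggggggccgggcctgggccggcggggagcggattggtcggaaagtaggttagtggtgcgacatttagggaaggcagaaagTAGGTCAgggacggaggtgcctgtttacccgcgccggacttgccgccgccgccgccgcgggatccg
Per2 (chr9:99496944-99497243, minus strand): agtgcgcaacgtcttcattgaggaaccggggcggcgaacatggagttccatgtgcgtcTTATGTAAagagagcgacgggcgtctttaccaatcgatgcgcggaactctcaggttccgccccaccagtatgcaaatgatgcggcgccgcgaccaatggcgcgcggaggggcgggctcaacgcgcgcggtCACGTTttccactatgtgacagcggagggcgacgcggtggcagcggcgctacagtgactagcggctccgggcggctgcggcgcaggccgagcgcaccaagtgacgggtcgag
Tef (chr7:115206577-115206876, plus strand): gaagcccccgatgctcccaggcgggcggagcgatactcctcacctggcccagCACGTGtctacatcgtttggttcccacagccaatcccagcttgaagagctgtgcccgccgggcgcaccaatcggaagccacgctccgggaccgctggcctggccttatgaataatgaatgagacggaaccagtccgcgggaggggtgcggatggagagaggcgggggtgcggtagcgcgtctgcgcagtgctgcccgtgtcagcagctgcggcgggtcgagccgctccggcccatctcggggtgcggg
Nr1d1 (chr10:84229405-84229704, minus strand): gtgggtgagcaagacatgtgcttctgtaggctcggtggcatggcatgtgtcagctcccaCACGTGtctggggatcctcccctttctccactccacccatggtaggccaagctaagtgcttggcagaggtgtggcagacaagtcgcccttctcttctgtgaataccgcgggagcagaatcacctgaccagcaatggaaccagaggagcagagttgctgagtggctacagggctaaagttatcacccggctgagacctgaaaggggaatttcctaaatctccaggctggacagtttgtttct
The Bmal1 window held the RORE core beginning 16 bases before the start, which 2.63% of 33469 promoters of this length also held. Per2 held CACGTT at 62 bases before its start and a D-box at 192, found in 4.83% and 3.66% of promoters. Tef held an E-box at 198 bases and the Nr1d1 window shown one at 191, against 6.42% of promoters. The other listed start of Nr1d1, whose window is not shown, had CACGTT on the opposite strand, at 174 bases. The windows of Dbp, Per1, Nr1d2, Npas2 and Clock held none of these letters. A match is a description of the letters and no evidence of binding.

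The activators were low on 3 of the AhR pools and high on the other one. Bmal1, whose loss alone stops the clock in mice, had log2 ratios of -0.66, -1.33, -0.29 and 0.91 on AhR replicates 1 to 4, against -0.57, 0.43, 0.23 and 0.63 on control replicates 1 to 4. The 2 extremes of Bmal1 were both AhR pools, replicates 2 and 4, and the control values lay between them. From the lowest to the highest array Bmal1 spanned 4.73-fold, and 6.08-fold in Agilent processed signals. Npas2, which encodes a partner of BMAL1, had -0.40, -0.36, -0.17 and 0.87 on AhR replicates 1 to 4, against 0.14, 0.45, 0.51 and 0.36 on control replicates 1 to 4. As for Bmal1, AhR replicate 4 was the highest, and here the other AhR pools were the 3 lowest of all. Clock, which encodes the other partner, had -0.12, -0.50, -0.25 and 0.44 on AhR replicates 1 to 4, against 0.03, 0.42, 0.01 and -0.28 on control replicates 1 to 4. Clock spanned 1.93-fold from lowest to highest and 3.31-fold in Agilent processed signals, where Npas2 spanned 3.23-fold in place of 2.41-fold. Clock departed from Bmal1 on control replicate 4, where Bmal1 was second highest and Clock second lowest. The probe of Clock was dim, with a mean Cy5 signal of 162 units.

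The output genes ran the other way. Dbp, a PAR bZIP factor whose transcript follows E-box activity closely, had 1.41, 1.22, 0.08 and -2.21 on AhR replicates 1 to 4, against 0.32, -1.36, -1.52 and -0.42 on control replicates 1 to 4. AhR pools were thus both the 2 highest and the lowest, and Dbp spanned 12.3-fold. Tef, another PAR bZIP factor, had 0.87, 0.66, 0.16 and -0.38 on AhR replicates 1 to 4, against 0.23, -0.47, -0.20 and -0.19 on control replicates 1 to 4. Tef kept nearly the order of Dbp at a span of 2.53-fold, with control replicate 2 in place of AhR replicate 4 as the lowest.

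The period and Rev-erb genes did not all follow Dbp. Per2, which encodes a repressor of the loop, had 0.82, 0.92, 0.28 and -0.70 on AhR replicates 1 to 4, against 0.43, 0.08, -0.17 and -0.04 on control replicates 1 to 4. Its highest and lowest pools were those of lowest and highest Bmal1. Per2 spanned 3.08-fold, and 4.59-fold in Agilent processed signals. Per1, which encodes the related repressor, was well above background in Cy5 on 1 array, AhR replicate 4, with a signal of 79.2 to 99 units over a local background of 74.2 to 80.0, so no ratio is given for it. Nr1d1, which encodes Rev-erb alpha, had 0.52, 0.48, 0.30 and -0.10 on AhR replicates 1 to 4, against 0.14, -0.38, 0.36 and 0.44 on control replicates 1 to 4. Control replicates 3 and 4 had high Nr1d1 together with high Bmal1, unlike the other pools. Nr1d2, which encodes Rev-erb beta, had -0.15, 0.10, -0.05 and -0.24 on AhR replicates 1 to 4, against -0.06, -0.10, -0.05 and -0.19 on control replicates 1 to 4. Nr1d2 spanned only 1.27-fold at a dim mean signal of 140 units, and 1.80-fold in Agilent processed signals. Cry1, which encodes a cryptochrome repressor, had 0.56, -0.27, -0.47 and 0.16 on AhR replicates 1 to 4, against -0.24, 0.03, -0.27 and 0.15 on control replicates 1 to 4. Its highest and lowest pools, AhR replicates 1 and 3, were neither the highest nor the lowest in Bmal1.

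**Figure D1:**
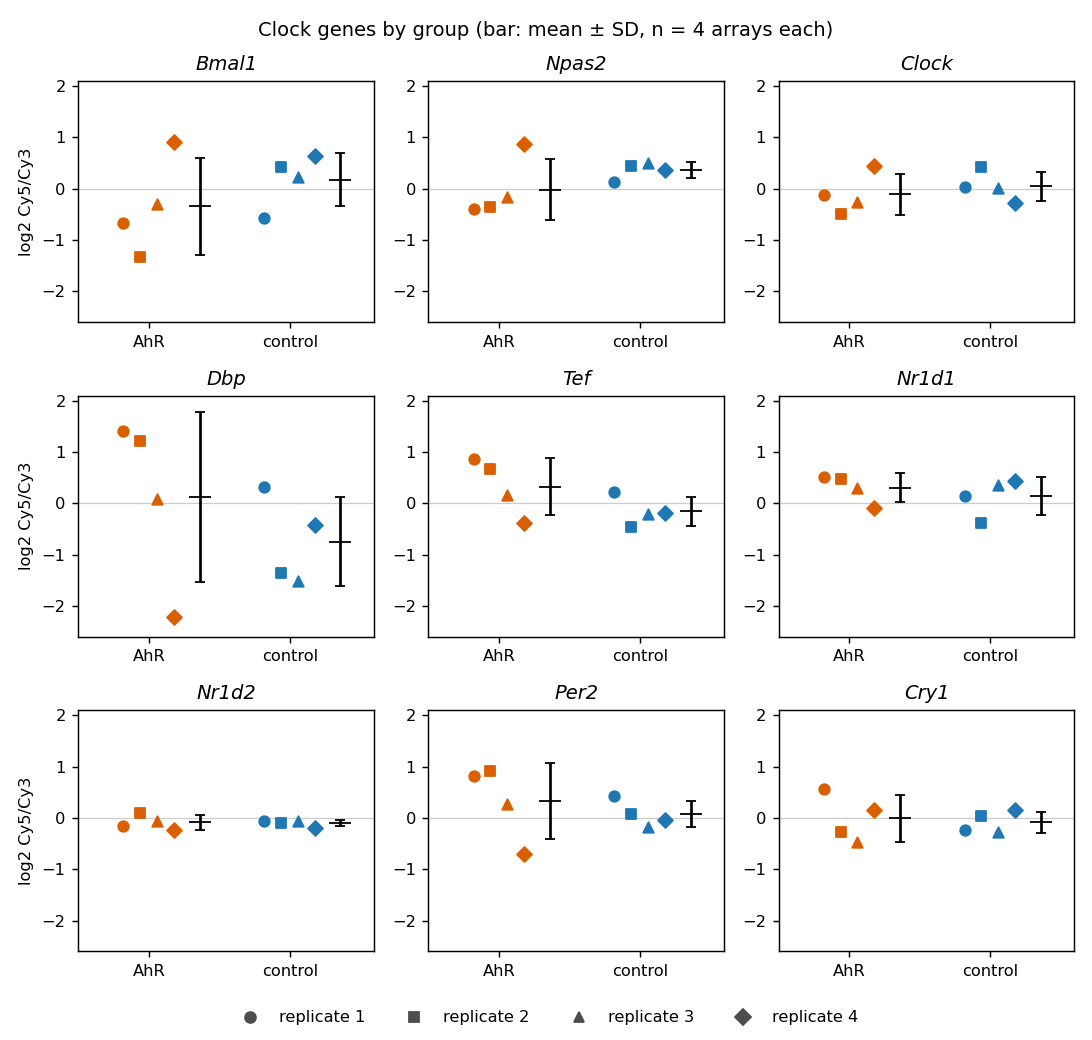
Log2 Cy5 over Cy3 (y axis) of the 9 measured clock genes in AhR pools (left, orange) and control pools (right, blue). Symbols mark the replicate number and black bars the mean ± SD of 4 arrays. The groups overlap for every gene. AhR replicate 4 is the highest AhR pool in Bmal1 and Npas2 and the lowest in Dbp and Per2. A Dixon outlier test of each gene in each group (18 sets of 4 values) flagged 0.

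The comparison of AhR with control asks whether exposure before weaning left a difference in adult liver. In none of the 9 measured clock genes did the groups differ beyond the spread between pools. Mean Bmal1 was -0.34 ± 0.94 in AhR and 0.18 ± 0.52 in control (SD, n = 4 each), which put AhR minus control at -0.52 with an SE of 0.41 and a 95% interval of -1.43 to 0.39 (limma adjusted p = 1.00, exact permutation p = 0.343). Mean Npas2 was -0.02 ± 0.60 in AhR and 0.36 ± 0.16 in control, or -0.38 apart with an SE of 0.24 and an interval of -0.92 to 0.16 (exact permutation p = 0.257). Dbp averaged 0.12 ± 1.66 in AhR and -0.75 ± 0.86 in control, or 0.87 apart with an SE of 0.71 and an interval of -0.69 to 2.44 (exact permutation p = 0.371). Tef averaged 0.33 ± 0.56 in AhR and -0.16 ± 0.29 in control, or 0.48 apart with an SE of 0.25 and an interval of -0.06 to 1.03 (exact permutation p = 0.200). The intervals of Bmal1, Dbp and Tef each reach past a 2-fold change in one direction, so these data bound their group difference only loosely. Per2 differed by 0.25 (SE 0.31), Nr1d1 by 0.16 (SE 0.19), Cry1 by 0.08 (SE 0.20), Nr1d2 by 0.02 (SE 0.10) and Clock by -0.15 (SE 0.20). AhR means lay above control means for 6 of the 9 genes and below for 3, beside 4947 above and 5057 below among the 10004 genes. Nr1d2 changed sides in the processed signals of Agilent (-0.069) and in the Cy5 channel taken by itself (-0.0074). With single arrays left out Nr1d2 did so again. So did Cry1 (-0.11 without AhR replicate 1) and Nr1d1 (-0.011 without control replicate 2). The median of the 9 was 0.08, beside 0.00 over the 10004 genes. The 3 below were the activators, of which Npas2 lay above on its other probe.

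At limma's adjusted threshold of 0.05, 0 of 17859 probes passed, 0.0% of them, while 288 had an unadjusted p under 0.05, which is 1.61%. None of the clock genes was among either. The groups did not overlap for 212 probes, 1.19%, and overlapped for all 9 clock genes. With 4 against 4 arrays the exact permutation test cannot go below 0.0286. The size of these differences depended on single pools of either group. Without control replicate 1 they were -0.77 for Bmal1 and 1.23 for Dbp. Without AhR replicate 2 the differences were -0.19 for Bmal1, -0.27 for Npas2, -0.02 for Clock, 0.51 for Dbp and 0.057 for Per2. Without AhR replicate 4 the differences were -0.94 for Bmal1, -0.67 for Npas2, -0.34 for Clock, 1.65 for Dbp and 0.60 for Per2, and limma's adjusted p was still 1.00 for each. Without AhR replicate 1 the difference of Npas2 was -0.25, that of Dbp 0.44, that of Tef 0.30 and that of Per2 0.092. Clock had -0.03 without control replicate 2 and -0.26 without control replicate 4. The slide had 2 rows, each with 2 pools of either group, and AhR replicates 2 and 4, the extremes of Bmal1, shared row 1. Within row 1 AhR minus control was -0.041 for Bmal1, -0.069 for Npas2, 0.11 for Dbp, 0.12 for Tef and -0.021 for Per2. Within row 2, which held AhR replicates 1 and 3 with control replicates 2 and 4, it was -1.01 for Bmal1, -0.69 for Npas2, 1.63 for Dbp, 0.84 for Tef and 0.53 for Per2. For these 5 genes the larger difference was thus in row 2, while Cry1 differed by 0.20 in row 1 and by -0.041 in row 2. The difference between rows was not tested, and with the row as a block limma's adjusted p remained 1.00.

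Pools of 1 group differed more in 8 of the 9 clock genes than in most genes, Nr1d2 being the exception. The SD within groups was 1.32 for Dbp, 0.76 for Bmal1, 0.56 for Per2, 0.44 for Tef and for Npas2, 0.36 for Cry1, 0.35 for Clock, 0.33 for Nr1d1 and 0.11 for Nr1d2, beside a median of 0.17 over all measured genes. Dbp and Bmal1 ranked 1 and 41 among 10004 genes, and Per2 126. Tef, Npas2, Cry1, Clock and Nr1d1 ranked between 281 and 820, while Nr1d2 ranked 8157. The members were chosen with earlier results of these data known, so the ranks describe them and add no independent evidence. Spots of 1 probe on 1 array, a measure of technical error on the array alone, had a median SD of 0.032 to 0.095 for the 9 genes. The highest SD on any array was 0.10 for Dbp, 0.19 for Bmal1, 0.096 for Per2 and 0.23 for Npas2. For Clock it was 0.39, above the SD between its pools. The liver channel carried this variation. Over the 8 arrays the Cy5 signal alone had an SD of 1.36 for Dbp, 0.78 for Bmal1 and 0.61 for Per2, whereas the Cy3 signal had 0.064, 0.12 and 0.053.

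The spread was larger in AhR for 8 of the 9 genes, Nr1d1 being the exception. For Npas2 the SD was 0.60 in AhR and 0.16 in control, and for Per2 0.74 in AhR and 0.26 in control. Over all measured genes, 39.7% had the larger SD in AhR. Without AhR replicate 4 the SD in AhR was 0.12 for Npas2, 0.34 for Per2 and 0.72 for Dbp, and 5 of the 9 genes had the larger SD in AhR, beside 33.1% of all genes. The difference in spread was not tested.

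**Figure D2:**
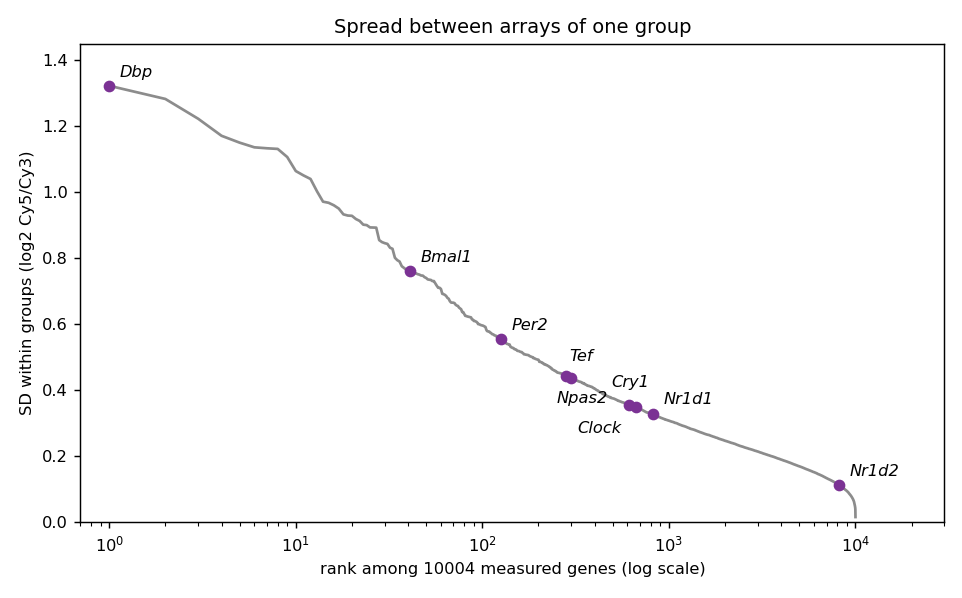
SD of log2 Cy5 over Cy3 within groups (y axis) against its rank (x axis, log scale) for all measured genes (grey line) and the 9 clock genes (purple points). Dbp stands at rank 1 with 1.32, Bmal1 at 41 with 0.76, and Nr1d2 at 8157 with 0.11.

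The arrays were next put in order by Bmal1, without forming groups from that order. From lowest to highest Bmal1 they were AhR replicate 2, AhR replicate 1, control replicate 1, AhR replicate 3, control replicate 3, control replicate 2, control replicate 4 and AhR replicate 4. Along this order Dbp had 1.22, 1.41, 0.32, 0.08, -1.52, -1.36, -0.42 and -2.21, and Per2 had 0.92, 0.82, 0.43, 0.28, -0.17, 0.08, -0.04 and -0.70. The first 4 pools were all above 0 and those after them, but for Per2 on control replicate 2, all below it. Both groups were on either side, with 3 AhR pools and 1 control pool among the first 4.

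Correlations with Bmal1 over the 8 arrays set the members apart from one another. Per2 had r = -0.93 (exact permutation p = 0.00114) and rho = -0.93 (exact p = 0.00223). Tef had r = -0.89 (exact permutation p = 0.00384) and rho = -0.86 (exact p = 0.0107), and Dbp r = -0.89 (exact permutation p = 0.00454) and rho = -0.88 (exact p = 0.00724). Npas2 ran with Bmal1, at r = 0.895 (exact permutation p = 0.00372) and rho = 0.86 (exact p = 0.0107). Without AhR replicates 2 and 4, the arrays farthest from the median of Bmal1, r was -0.87 for Per2, -0.87 for Tef, -0.80 for Dbp and 0.81 for Npas2. Nr1d2 had r = -0.79 (exact permutation p = 0.0173), rho = -0.67 (exact p = 0.0831) and only -0.32 without these 2 arrays. Its r was thus much weaker without the ends of the Bmal1 range. With single arrays left out it was -0.92 to -0.60. Clock had r = 0.67 (exact permutation p = 0.0704), rho = 0.52 (exact p = 0.197) and 0.18 without them. Nr1d1 had r = -0.54 (exact permutation p = 0.179), rho = -0.60 (exact p = 0.132) and -0.30 without them.

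Cry1 had r = 0.24 with Bmal1 (exact permutation p = 0.575), rho = 0.26 (exact p = 0.536) and -0.07 without these 2 arrays. Its r depended on AhR replicate 1, without which it was 0.72. Of the 8 relations, 5 had an exact p under 0.05, 4 in the opposite and 1 in the same direction. Among all 10003 other genes 450 did, 4.5% of them, with 2.23% in the opposite and 2.27% in the same direction. None of the 8 passed over all genes (adjusted p = 0.981 to 0.986, exact permutation), and of the 10003 genes 0 did, 0.0%. The run of Dbp against Bmal1 was known from earlier results of these data and led to the choice of these genes, so these values describe it and add no independent evidence. Centred on the mean of each group, r was -0.93 for Per2, -0.88 for Tef, -0.87 for Dbp and 0.88 for Npas2. Centred on the mean of each slide row, r was -0.98, -0.90, -0.95 and 0.98 for the same genes; a row held 4 arrays, too few for a value of its own.

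**Figure D3:**
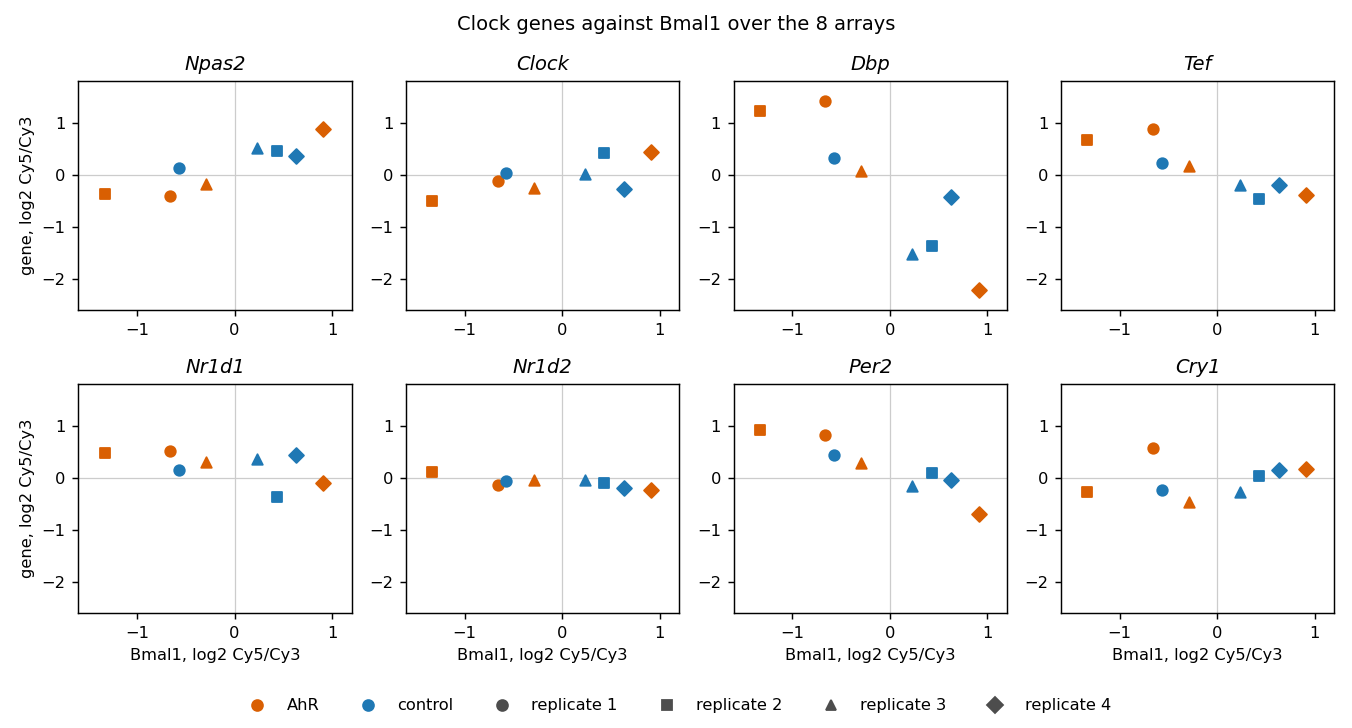
Log2 Cy5 over Cy3 of 8 clock genes (y axis) against that of Bmal1 (x axis), with AhR pools in orange, control pools in blue and symbols for the replicate number. Per2, Tef and Dbp fall along Bmal1 and Npas2 rises with it, Nr1d2 stays nearly flat, and Cry1 shows no run.

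The pairs of Dbp, Tef, Per2 and Npas2 with each other showed the same division. Each of these genes already ran closely with or against Bmal1 on the same arrays. Their values with each other, p-values included, therefore follow in large part from those relations and add no independent evidence. Over 36 pairs of the 9 genes, Dbp went with Per2 at r = 0.95 (exact permutation p = 0.000347) and rho = 0.95 (exact p = 0.00114). Dbp also went with Tef at r = 0.94 (exact permutation p = 0.000868) and rho = 0.93 (exact p = 0.00223), and opposite to Npas2 at r = -0.96 (exact permutation p = 0.000298) and rho = -0.98 (exact p = 0.000397). Without the 2 arrays farthest in Dbp these were 0.91, 0.94 and -0.91. None passed when adjusted over all genes tested against the same gene (adjusted p = 0.422, 0.579 and 0.652, exact permutation). The Rev-erb genes did not run together: Nr1d1 with Nr1d2 had r = 0.31 (exact permutation p = 0.449) and rho = 0.24 (exact p = 0.582), and -0.06 without the 2 arrays farthest in Nr1d1. Nr1d1 was most opposed to Clock, at r = -0.87 (exact permutation p = 0.00516) and rho = -0.79 (exact p = 0.0279), which was -0.55 without those 2 arrays (adjusted p = 0.260, exact permutation). Cry1 had no steady relation with Per2 (r = -0.02, exact permutation p = 0.962, rho = -0.10, exact p = 0.840) or with Nr1d1 (r = 0.01, exact permutation p = 0.975, rho = 0.10, exact p = 0.840). Without the 2 arrays farthest in Per2 the one was 0.49, and without the 2 farthest in Cry1 the other was -0.43. Cry1 and Nr1d2 were opposed at r = -0.66 (exact permutation p = 0.0744) and rho = -0.83 (exact p = 0.0154), and at -0.87 without the 2 arrays farthest in Cry1 (adjusted p = 1.00, exact permutation).

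**Figure D4:**
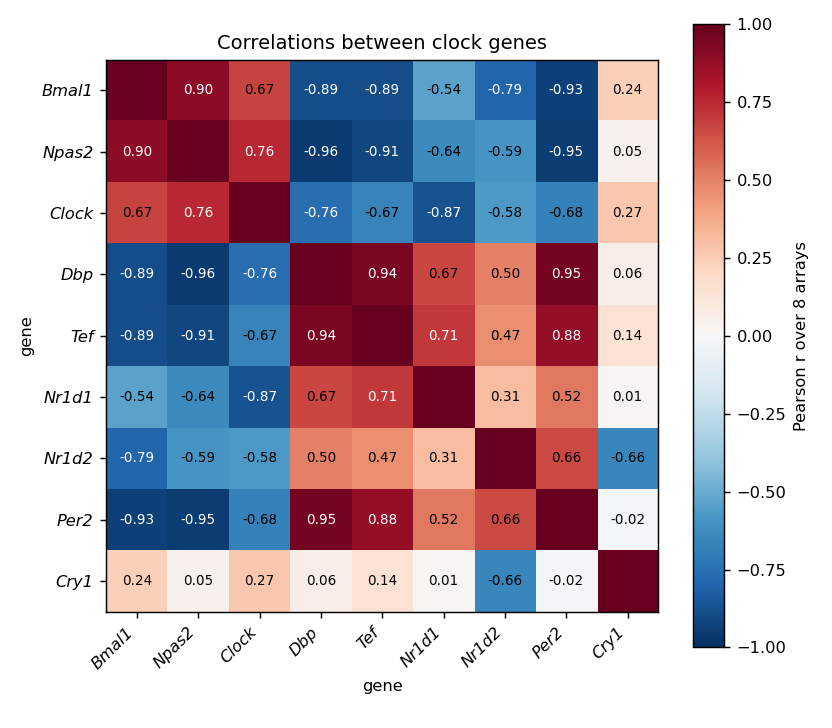
Pearson r over the 8 arrays (colour scale from -1 to 1) for each pair of the 9 measured clock genes. Bmal1, Npas2 and Clock form a positive block, Dbp, Tef and Per2 another that is opposed to it, and Cry1 lies between -0.02 and 0.27 with all but Nr1d2 (-0.66).

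Dbp, Bmal1, Npas2 and Clock had more than 1 probe, and these did not follow each other in each case. The 3 probes of Dbp followed each other at r = 0.993 and 0.994 with the one used, although the others spanned 8.28-fold and 8.69-fold in place of 12.3-fold. The second Bmal1 probe followed the first at r = 0.958, with a span of 3.07-fold. The second Npas2 probe, with a mean signal of 209 units against 369, had r = -0.11 with the first and spanned 1.39-fold. On it the mean of AhR was above that of control by 0.05 (SE 0.12), and its r with Bmal1 was 0.18. The statements on Npas2 above hold for the brighter probe alone. The second Clock probe, well above background on 5 of the 8 arrays, had r = 0.72 with the one used. These values across probes are descriptions over 8 arrays of the same RNA.

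**Figure D5:**
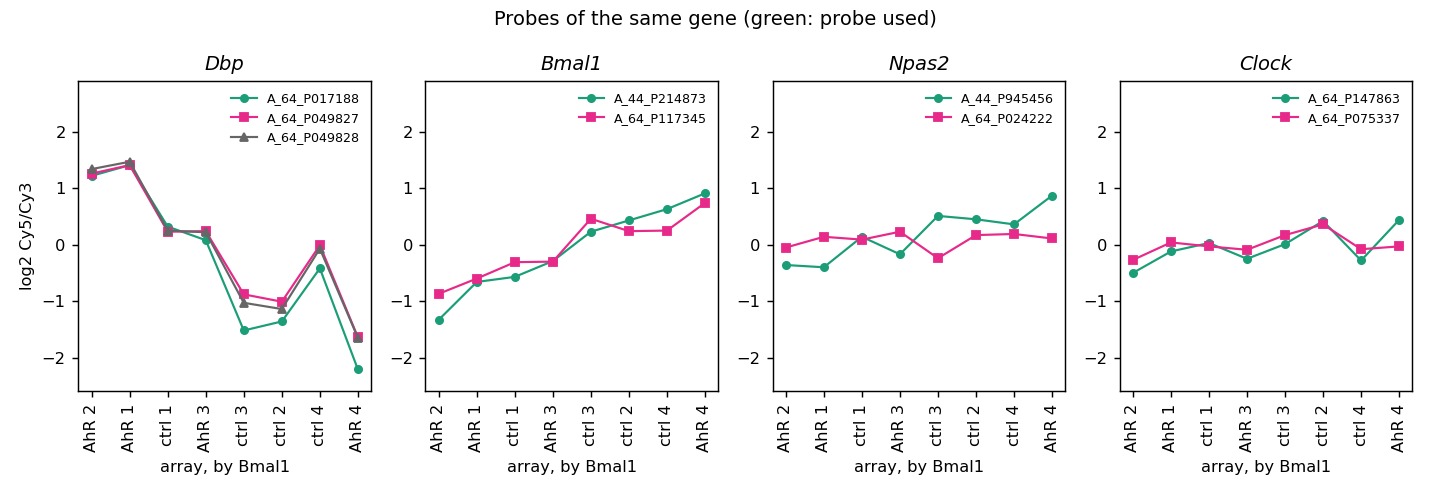
Log2 Cy5 over Cy3 (y axis) of each probe of Dbp, Bmal1, Npas2 and Clock on the 8 arrays, ordered by Bmal1 from low to high (x axis). The probes of Dbp and of Bmal1 overlie each other in shape, and the second Npas2 probe (A_64_P024222) stays flat where the first rises.

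Other genes of the clock were set beside Bmal1 as well. Of 27 listed clock and output genes 20 had a named probe and 18 were measured; 0 passed in either direction between AhR and control, and the median of AhR minus control was 0.08. With Bmal1, 4 of the 18 had an exact p under 0.05 in the opposite and 1 in the same direction, beside 2.23% and 2.27% of all genes. The median r was -0.35, beside -0.015 over all genes and -0.43 over the bile acid and lipid genes described below. Alas1, which encodes the rate-limiting enzyme of heme synthesis, had r = -0.80 (exact permutation p = 0.0176), rho = -0.90 (exact p = 0.00456) and -0.92 without the 2 extreme arrays of Bmal1. Its lowest log2 ratio was -0.62, on AhR replicate 4, and its highest 0.33, on AhR replicate 1. Nfil3, which encodes a repressor at D-boxes, had r = 0.80 (exact permutation p = 0.0182), rho = 0.71 (exact p = 0.0576) and 0.52 without those arrays. Usp2, which encodes a deubiquitinase, had r = -0.78 (exact permutation p = 0.0283), rho = -0.67 (exact p = 0.0831) and -0.86 without them. The remaining 2 past that level were Wee1, a kinase of the cell cycle, at r = -0.74 (exact permutation p = 0.0326) and Por, the reductase of microsomal P450 enzymes, at r = -0.74 (exact permutation p = 0.0328). Their rho was -0.69 and -0.86 (exact p = 0.0694 and 0.0107), and their r without those arrays -0.56 and -0.83. The paralogues Per3 and Cry2 had r = -0.24 and -0.22 (exact permutation p = 0.575 and 0.597) and rho = -0.19 and -0.36, and varied little, with SDs within groups of 0.094 and 0.109.

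Genes of feeding, of stress hormones and of temperature, which can shift liver clocks, were set beside the clock. Each of these lists held 0 or 1 gene with an exact p under 0.05 against Bmal1, beside 4.5% of all genes. Lists this short cannot show whether their share differs from that. Of 15 feeding and fasting genes 0 had one, and the median r was -0.01. Pdk4, a kinase that spares glucose in fasting, had r = 0.68, Angptl4 0.66 and the elongase Elovl6 -0.56 (exact permutation p = 0.0653, 0.0777 and 0.158), with rho of 0.45, 0.52 and -0.48 and with r of 0.54, 0.57 and -0.60 without the 2 extreme arrays. Of 13 glucocorticoid-responsive genes 1 did, Cdkn1a at r = 0.75 (exact permutation p = 0.0344) and rho = 0.64 (exact p = 0.0962). Its r was only 0.40 without the 2 extreme arrays. The median r of that list was -0.32. Next were Errfi1 at r = -0.68 (exact permutation p = 0.0593, rho = -0.69) and Ddit4 at -0.67 (exact permutation p = 0.0738, rho = -0.67). Of 9 measured genes of 11 that respond to temperature, 1 did. This was Rbm3, which encodes a cold-inducible RNA-binding protein, at r = -0.79 (exact permutation p = 0.0189), rho = -0.86 (exact p = 0.0107) and -0.59 without the 2 extreme arrays. Cirbp, its relative, had r = -0.33 (exact permutation p = 0.423, rho = -0.26) and Hsf1, a heat-shock factor, 0.59 (exact permutation p = 0.126, rho = 0.48). Of 12 measured bile acid and lipid genes of 15 listed, 1 did, Insig2, which holds back sterol synthesis, at r = 0.70 (exact permutation p = 0.0482), rho = 0.86 (exact p = 0.0107) and 0.84 without the 2 extreme arrays. Lpin1, a phosphatase of lipid synthesis, had r = -0.69 (exact permutation p = 0.0618, rho = -0.76). The median r was -0.43 for the bile acid and lipid list and -0.05 for the temperature list. None of these genes passed over all genes, and none of these lists held a gene past limma's adjusted threshold between AhR and control.

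Among genes outside the clock, those named as most like Bmal1 over the 8 arrays were Arhgap29 (r = 0.96), Med12 (0.95), Zkscan3 (0.92), Cbll1 (0.92) and Prkci (0.91), with exact permutation p of 0.000372 to 0.00241. Those most opposed were Hexim2 (r = -0.97), Tmem179 (-0.96), Pea15 (-0.95), Col14a1 (-0.95), Med4 (-0.95) and C6 (-0.92), with exact permutation p of 2.48e-05 to 0.00146. The lowest adjusted p over all genes was 0.248, for Med4, whose exact permutation p is the smallest that 40320 orders of the arrays can give. Most of these genes varied far less than Bmal1: the SD within groups was 0.169 for Arhgap29 and 0.092 for Hexim2. Among cell type markers, the mean log2 ratio of 5 measured of 6 listed cholangiocyte markers was -0.11 to 0.02 in AhR and -0.31 to 0.11 in control, with r = -0.73 against Bmal1 over 8 arrays. Of these 5 markers 1, Epcam, had an exact p under 0.05 (r = -0.76, rho = -0.79, exact permutation p = 0.0350 and 0.0279), and the median r of the 5 was -0.39. The mean of the 10 hepatocyte markers had r = -0.44 with Bmal1 and 0.45 with Dbp. The means of Kupffer, endothelial, stellate and erythroid markers had r between -0.10 and 0.18 with Bmal1. Their part in the clock values was not tested.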

How the data were processed

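Liver RNA of 4 AhR and 4 control pools (200 ng labelled, per the labels' protocols) was read on Agilent 2-colour arrays. The intensity values are median pixel brightness of each spot and its local background, deposited by the authors as Agilent Feature Extraction 10.7.3.1 wrote them, per the file headers; processed signals and a log10 ratio in the same deposited files had been background-subtracted and dye-normalized by that software. The authors' deposited value table is in log2 units of unstated scale; against unsubtracted, loess-corrected Cy5 over Cy3 its columns had slopes of 0.978 to 0.988 and medians of 0.0057 to 0.0165, so its direction is Cy5 over Cy3, while its exact dye correction is unknown.

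From the intensity values, normexp (offset 50) and within-array loess were applied in limma 3.58.1 (R 4.3.3), giving control spots and outlier flags no weight. Replicate spots were averaged per probe. Of 30367 probes, 17859 had Cy5 well above background on at least 4 of 8 arrays and were kept; 18004 were named through RefSeq accessions (assembly GRCr8), 11656 of them kept. Groups were compared by limma (lmFit, eBayes, Benjamini-Hochberg over all kept probes) with exact two-sided permutation tests beside it. Correlations used all 40320 orders of the arrays, adjusted over all measured genes; 8 relations with Bmal1 and 36 pairs were computed. Both procedures were tested on simulated data. Alternatives were Agilent processed signals, no background subtraction, median centring, Cy5 alone, the deposited value table, no filter, other probes, slide row or replicate number as a block, and leaving out each array. Named were all members, the 3 genes of each of 5 lists with the highest absolute r with Bmal1, and the 6 genes most like and 6 most opposed; Per3, Cry2, Wee1 and Por were added after their values were seen. Some genes that this rule names are not reported here. Members, lists and alternatives were chosen with earlier results of these data known. No time of sampling was used.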

Additional observations from a re-analysis of the deposited data

How the results depend on the processing

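The count of probes past an adjusted p of 0.05 between AhR and control was 0 under every setting run, and no clock gene passed under any (lowest limma adjusted p = 0.913, without single arrays). Across 77 differences under other settings 74 kept their direction. Exceptions were Nr1d2 (-0.069 from processed signals, -0.0074 from the Cy5 channel by itself) and the second Npas2 probe (0.053). With 1 array left out the differences ranged from 0.44 to 1.65 for Dbp, 0.30 to 0.72 for Tef, 0.06 to 0.60 for Per2, -0.11 to 0.24 for Cry1, -0.011 to 0.29 for Nr1d1, -0.044 to 0.069 for Nr1d2, -0.94 to -0.19 for Bmal1, -0.67 to -0.25 for Npas2 and -0.34 to -0.02 for Clock. Correlations with Bmal1 kept their direction under 67 of 68 other settings, and Cry1 had -0.084 with Cy5 alone. Their size varied. With median centring r was -0.75 for Tef, -0.80 for Dbp, -0.62 for Nr1d2 and -0.35 for Nr1d1, while Npas2 stayed at 0.90. With Cy5 alone Nr1d2 had -0.44, whereas Tef had -0.96 and Dbp -0.93. On their second probes Npas2 had 0.18 and Clock 0.49. None passed over all genes. Without single arrays r was -0.95 to -0.84 for Dbp, -0.95 to -0.87 for Tef, -0.95 to -0.91 for Per2, 0.08 to 0.72 for Cry1, -0.72 to -0.41 for Nr1d1, -0.92 to -0.60 for Nr1d2, 0.85 to 0.92 for Npas2 and 0.48 to 0.90 for Clock. The clock genes with the larger SD in AhR numbered 5 to 9 of 9, beside 33.1% to 46.6% of all genes, an alternative chosen after seeing the data. Counts at an unadjusted p under 0.05 moved more. The 288 probes (151 higher, 137 lower in AhR) became 172 with median centring (131 higher, 41 lower), 715 with no filter on dim probes, 505 without AhR replicate 4 and 818 without control replicate 4. The 450 genes with an exact p under 0.05 against Bmal1 became 687 with Cy5 alone, 242 without AhR replicate 4 and 817 without control replicate 4. The cause of these shifts was not tested. Same-numbered arrays of AhR and control shared a slide column, so the replicate block is also a block by column. Their deviations from group means had r of 0.0026, -0.063, 0.048 and -0.37, beside -0.32 to 0.28 for arrays of different number. Such values cannot settle whether the numbers pair the arrays in another way. With the replicate block limma gave 251 probes at an unadjusted p under 0.05 and 0 at an adjusted p of 0.05. The Dbp difference stayed 0.87 (adjusted p = 1.00). Mean spot signals were not run, since the files used hold medians. Per1 was too dim to test. Signals near background limit Nr1d2 and Clock, and 4 arrays a group limit every comparison.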
